A study of Mus musculus with 16 samples.

Results

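The contrast asked whether the kidney's response to vitamin B12 depended on diabetes. It is the difference between libraries labelled D_B12 and D_C minus the difference between libraries labelled ND_B12 and ND_C, on the log2 scale, and is called the interaction here. All 16 libraries of the series entered it, 4 in each of 4 groups, and each was made from the kidney of a different mouse. The table lists 57186 genes, and a test was made of the 25408 whose 16 counts summed to at least 100. A gene had opposite B12 differences when it was higher with B12 in one arm, diabetic or non-diabetic, and lower with B12 in the other, which was so for 15543 genes.

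The 4 groups shared their strain background, sex and engineered allele. All mice were male, on a C57BL/6J background, 16 weeks old and homozygous for Elmo1H/H, an allele that raises expression of Elmo1, an activator of Rac signalling. Non-diabetic mice (ND) were Elmo1H/H Ins2+/+, and diabetic mice (D) were Elmo1H/H Ins2Akita/+, carrying an insulin variant that misfolds in the beta cell and leaves mice hyperglycemic from a young age. Treated mice (ND_B12 and D_B12) took 10 mg/kg of B12 per day with their drinking water from 8 weeks of age, a period that the study's methods give as 8 weeks and the labels as 16, and control mice (ND_C and D_C) took none. Every mouse carried raised Elmo1, so no group with a wild-type Elmo1 gene stands beside these. Kidneys were whole, and a change in the share of a cell type cannot be told apart from a change of RNA per cell. Totals ran from 65271308 to 91771136 counts per library. Markers of the proximal tubule, the main epithelium of the kidney, summed to between 882213 and 1141861 normalized counts in every library, and 3 of 9 adrenal markers (Cyp11b1, Cyp11b2 and Th) were at 0 throughout.

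Several libraries went against their labels. On 2531 genes that differed with diabetes in the 14 libraries other than columns S8 and S9, each library was placed between 0, the mean of the non-diabetic libraries, and 1, the mean of the diabetic ones. Library ND_B12 4 (column S8) had a median position of 0.77, while the other 7 non-diabetic libraries lay between -0.11 and 0.11. Library D_C 1 (column S9) had 0.23, while the other 7 diabetic libraries lay between 0.74 and 1.33. The 14 libraries chose these genes and set 0 and 1, so their nearness to 0 or 1 is in part built in. Columns S8 and S9 took no part in that choice, so the gaps to them are no measure of how unusual they are. The group means in the study's supplementary table, compared over 175 genes, were best matched by other sets of libraries than the labels give, with 5 libraries under the same group name and 11 under another. The median absolute log2 difference from those means was 0.000568 to 0.00567 for the matching sets, and 0.0377 to 0.291 for the labelled groups. Each set was searched for separately, and each of the 16 libraries fell in 1 set only. Its D_C means matched the 4 libraries labelled D_B12, and its D_B12 means matched ND_B12 4 with D_C 2, 3 and 4. Its ND_C means matched ND_C 1, 2 and 4 with ND_B12 1, and for its ND_B12 means the best set was D_C 1 with ND_C 3 and ND_B12 2 and 3. All groups and directions below follow the labels. If the names D_C and D_B12 were exchanged, every difference in the diabetic arm would change sign, and genes described here as opposite between the arms would go the same way in both. Opposite differences would then be found in 9860 of 25408 genes (38.8%) and in 1 of the 22 clock genes described next, in place of 21. The sets that matched the supplementary table also move ND_B12 4, D_C 1, ND_C 3 and ND_B12 1, so these counts are not those of that grouping. The study reports Bmal1 lower and Cry1 higher with B12 in diabetic kidneys, the reverse of the labelled direction.

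The circadian clock is a transcriptional loop with a daily period. In it BMAL1 pairs with CLOCK or NPAS2 and drives genes for its own repressors, the PER and CRY proteins, through a DNA element called the E-box. A second loop of activators and REV-ERB repressors (Nr1d1, Nr1d2) sets the level of Bmal1, and outputs such as Dbp, Tef and Hlf pass the rhythm on through D-box elements. In the kidney the clock paces tubular transport and metabolism. Bmal1 and its E-box targets peak at opposite times of day, so a sample's place in the cycle shows as a seesaw between them.

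Promoter stretches of clock genes are shown because the genes that carry these elements, other than Bhlhe40, had B12 differences of the opposite sign to Bmal1 in both arms. In the 250 bases before the start of the canonical transcript that GENCODE gives for each gene, which for some genes lies inside the gene's full span, an E-box of the letters CACGTG, which reads the same on both strands, was found in 6 of 22 clock genes (27.3%) and in 6.26% of 21770 coding gene promoters. Each stretch is from GRCm39, given 5′ to 3′ on the strand of the gene with each copy of the element in capitals. For genes with several copies (Ciart and Per3), the stretch around the copy nearest the transcript start is shown.
Bhlhe40 (chr6:108636384-108636429, plus strand): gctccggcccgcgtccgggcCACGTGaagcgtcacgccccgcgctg
Ciart (chr3:95789559-95789604, minus strand): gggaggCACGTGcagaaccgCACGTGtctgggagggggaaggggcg
Cry1 (chr10:85020953-85020998, minus strand): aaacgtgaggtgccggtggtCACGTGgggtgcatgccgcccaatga
Per1 (chr11:68989226-68989267, plus strand): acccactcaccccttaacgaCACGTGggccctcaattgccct
Tef (chr15:81695457-81695502, plus strand): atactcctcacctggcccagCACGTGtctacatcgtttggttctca
Usp2 (chr9:43978140-43978185, plus strand): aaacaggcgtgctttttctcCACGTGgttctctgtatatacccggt
A D-box of the letters TTATGTAA or, on the other strand, TTACATAA was found in 2 of the 22 (9.09%) and in 0.836% of all coding gene promoters. The capitals in the following stretches mark it, and the element does not overlap an E-box.
Per2 (chr1:91387144-91387191, minus strand): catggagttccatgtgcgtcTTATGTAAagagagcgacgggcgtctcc
Per3 (chr4:151129253-151129300, minus strand): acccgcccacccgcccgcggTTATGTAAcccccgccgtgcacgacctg
No clock gene promoter held an interferon-stimulated response element (GAAA, any 2 bases and GAAA again, on either strand), which 3.32% of all promoters held. These matches describe letters in a window and do not show that a factor was bound.

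Across all genes no interaction passed adjustment. edgeR's quasi-likelihood test called 0 of 25408 genes (0.00%) at an adjusted p below 0.05, with a smallest adjusted p of 0.0521 shared by 12 genes, and DESeq2 called 943. Without adjustment 4093 genes (16.1%) had a p below 0.05, of which 2034 (8.01%) were positive, meaning higher with B12 in diabetic than in non-diabetic kidneys relative to control, and 2059 (8.10%) negative. Opposite directions were found in 61.2% of all genes, 7705 of them higher with B12 in the diabetic arm and 7838 lower. The arms share no library. Over all genes their B12 differences had a Pearson r of -0.05, and over the 17567 genes with a mean of at least 50 normalized counts r was -0.26; genes are not independent replicates, and the value is a description. In neither arm alone was a gene called, with 1937 genes at an unadjusted p below 0.05 in non-diabetic and 3468 in diabetic kidneys. Of the 536 genes at that level in both arms, 489 went in opposite directions.

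A stricter set asked for opposite directions, a B12 difference of at least 0.5 (log2) in each arm, which is the study's fold threshold, and an unadjusted interaction p below 0.05. It held 423 genes (1.66%), 333 higher with B12 in diabetic and lower in non-diabetic kidneys, and 90 the reverse. The contrast itself chose these genes, so no test is made of them. Just inside the fold threshold among named genes with at least 50 counts lay Npas2 (-0.504 in the non-diabetic and 1.466 in the diabetic arm) and Mylip (0.706 and -0.503). Doc2g (-0.495 and 0.885) and Gins2 (0.554 and -0.498) lay just outside. In 117 genes (0.460%) the libraries did not overlap between B12 and control in either arm and the arms went opposite ways, 37 higher and 80 lower with B12 in diabetic kidneys.

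**Figure D1:**
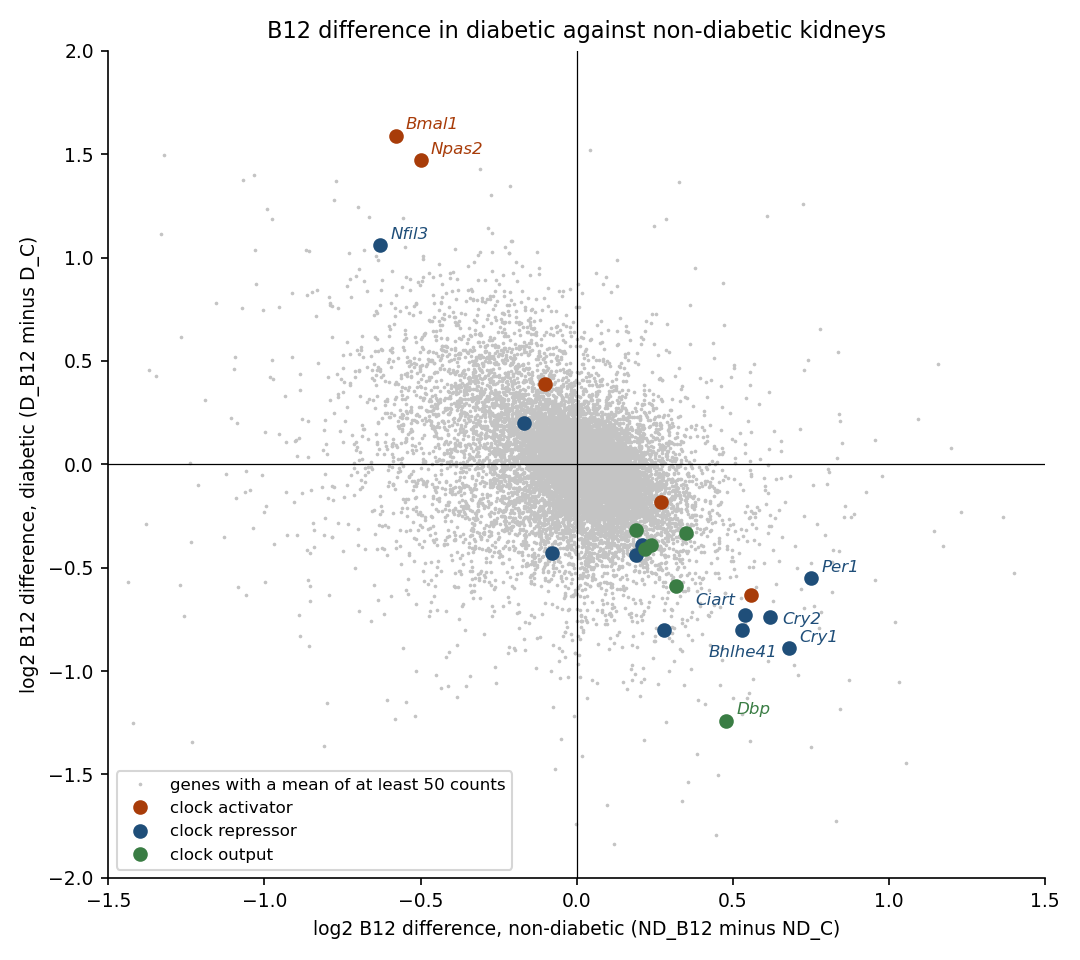
Log2 B12 difference in non-diabetic kidneys (x axis, ND_B12 minus ND_C) against diabetic kidneys (y axis, D_B12 minus D_C) for 17535 genes with a mean of at least 50 normalized counts (grey); 32 more lie beyond the axes. Coloured points are the 22 clock genes by role, of which 21 lie at the upper left or lower right, where the arms have opposite signs.

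Of the 22 clock genes 21 had opposite B12 differences (95.5%, against 61.2% of all genes). An unadjusted interaction p below 0.05 was found in 20 (16.1% of all genes), 4 positive and 16 negative. None of the 22 passed adjustment in edgeR. In DESeq2, which called 943 of all 25408 genes, 14 did. The 22 had a median interaction of -0.63, against -0.0028 over all genes. Bmal1, Npas2, Clock and the repressor Nfil3 were higher with B12 in diabetic and lower in non-diabetic kidneys, as was Nr1d1, whose p did not pass. Cry1, Cry2, the Per genes, Nr1d2, Bhlhe41, Ciart, the activator Rora and all 6 outputs had the reverse signs, with medians of 0.28 in the non-diabetic and -0.40 in the diabetic arm over the outputs. Bhlhe40, a repressor that binds E-boxes, was the exception and was lower in both arms, with -0.08 and -0.43. Of the 423 genes in the stricter set, which held 1.66% of all genes, 9 were clock genes.

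Bmal1 (chromosome 7, 112806152 to 112914735, plus strand) encodes the partner without which the loop stops. Its normalized counts were 1112, 513, 725 and 325 in the ND_C libraries 1 to 4 and 1062, 255, 243 and 227 in ND_B12. They were 269, 241, 231 and 325 in D_C and 1014, 925, 568 and 689 in D_B12. Every D_B12 library was above every D_C library, but in the non-diabetic arm the groups overlapped, with ND_B12 1 second only to ND_C 1 and the other 3 treated libraries below all 4 controls. The B12 difference was 1.59 (SE 0.46) in diabetic and -0.58 (SE 0.45) in non-diabetic kidneys, and the interaction was 2.17 (SE 0.64, edgeR adjusted p = 0.125, between 0.0186 and 0.220 over the alternatives). The smallest of these came without ND_B12 1, where the interaction was 3.06.

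Npas2 encodes a protein that can stand in for CLOCK. Counts of Npas2 were 798, 283, 491 and 182 in ND_C against 695, 120.4, 196 and 223 in ND_B12, and 186, 190.4, 271 and 335 in D_C against 878, 559, 520.1 and 742 in D_B12. As with Bmal1, D_B12 lay wholly above D_C and ND_B12 1 stood with the high controls. The interaction was 1.97 (SE 0.68, edgeR adjusted p = 0.171). Nfil3, which represses genes with D-boxes, followed the pair with 764, 642, 354 and 151 in ND_C against 448, 200.0, 265 and 321 in ND_B12, and 196, 227, 269 and 268 in D_C against 740.1, 662, 288 and 299.7 in D_B12. The D_B12 libraries split into a pair near the highest non-diabetic controls and a pair just above D_C. Its interaction was 1.69 (SE 0.58, edgeR adjusted p = 0.172).

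Cry1 and Cry2, core repressors of the loop, were the mirror image of Bmal1. Normalized counts of Cry1 (chromosome 10, 84967560 to 85021252, minus strand) were 179.8, 208, 212 and 263 in ND_C against 232, 469, 434 and 245 in ND_B12, and 547, 390.3, 279 and 359 in D_C against 220.0, 228, 245 and 149 in D_B12. All D_B12 libraries were below all D_C libraries, and ND_B12 2 and 3 were above every ND_C library. Its B12 difference was 0.68 (SE 0.25) in non-diabetic and -0.89 (SE 0.25) in diabetic kidneys, and the interaction was -1.57 (SE 0.35, edgeR adjusted p = 0.0672, between 0.00154 and 0.135 over the alternatives). Cry2 had 1071, 1418, 1218 and 1759 in ND_C against 1251, 2323, 2316 and 2475 in ND_B12, and 2569, 2769.9, 2396 and 2430.3 in D_C against 1077, 1272, 2111 and 1594 in D_B12. Here too 3 of 4 ND_B12 libraries lay above all controls and ND_B12 1 among them, and the interaction was -1.36 (SE 0.31, edgeR adjusted p = 0.0672).

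Per1, a repressor that also answers to glucocorticoids and light, had 1906, 3084, 3422 and 1759 in ND_C against 2222, 4367, 4779.9 and 5743 in ND_B12, and 4081, 4196, 3764 and 3092 in D_C against 2362, 2646, 2442 and 2806 in D_B12. It was lower in each D_B12 library than in each D_C library, and its interaction was -1.31 (SE 0.34, edgeR adjusted p = 0.0933). Dbp, a D-box activator with a large daily swing, had 2075, 4185, 2764 and 6521 in ND_C against 2145, 6332, 6101 and 7017 in ND_B12, and 6192, 4699.8, 7600.3 and 5125 in D_C against 1783, 2096, 2906 and 3143 in D_B12, and an interaction of -1.72 (SE 0.50, edgeR adjusted p = 0.119). ND_C 4 and ND_B12 1 were on the far side of their groups, ND_C 4 with the high Dbp of treated kidneys and ND_B12 1 with the low Dbp of controls. Dbp overlaps Sphk2 on the opposite strand.

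Nampt, the rate-limiting enzyme of NAD salvage and a clock output, had an interaction of -0.63 (SE 0.14, edgeR adjusted p = 0.0644). Every D_B12 library was below every D_C library for Nampt (9549 to 12654 against 13182 to 16431), and ND_B12 overlapped ND_C.

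**Figure D2:**
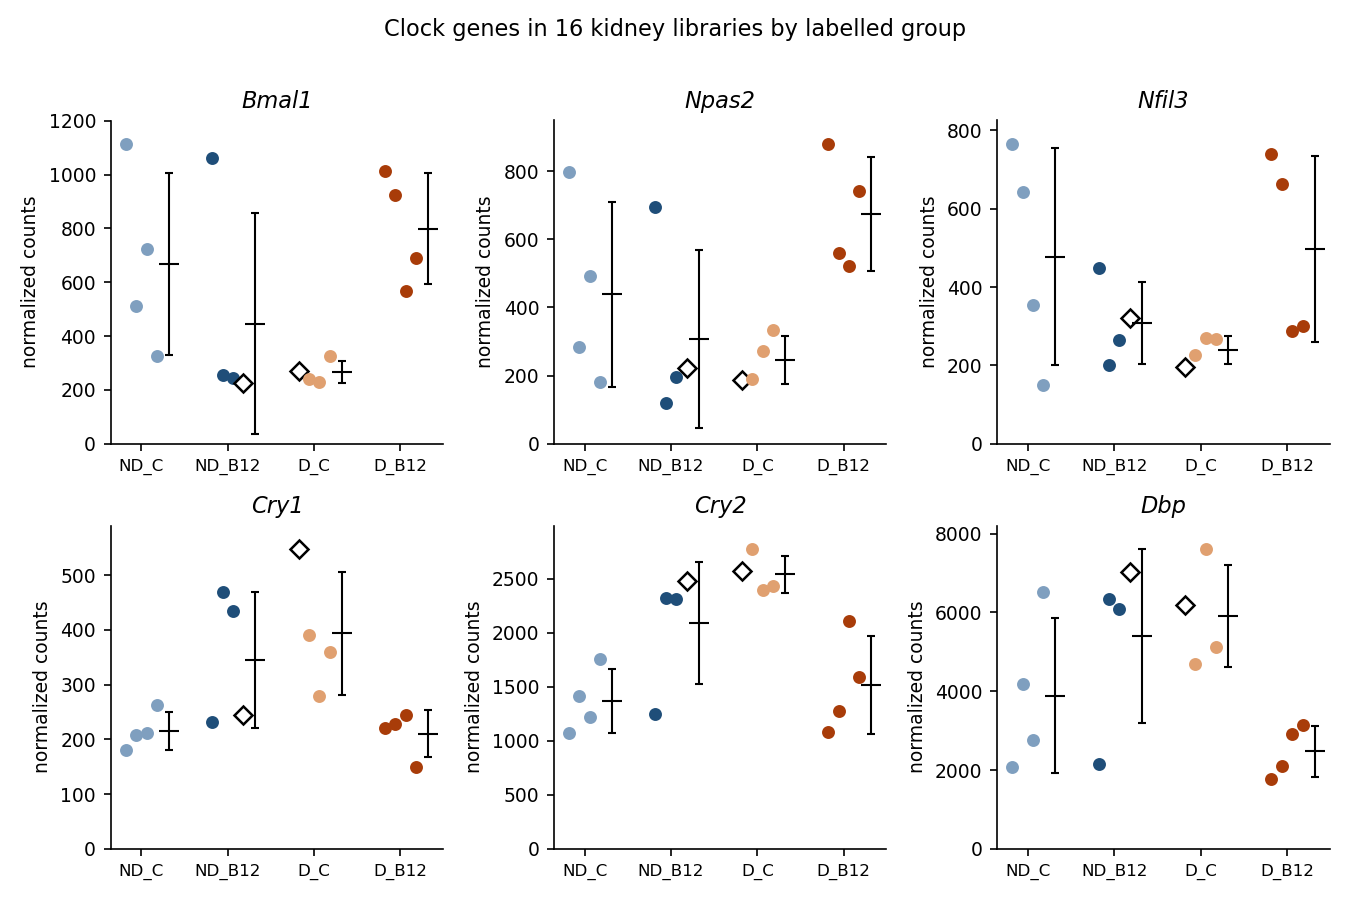
Normalized counts (y axis, from 0) of 6 clock genes in the 16 libraries, by labelled group (x axis), with the mean and SD of each group at its right. Open diamonds are ND_B12 4 and D_C 1; for Bmal1, D_B12 lies between 568 and 1014 and D_C between 231 and 325, while in ND_B12 the first library has 1062 and the others 227 to 255.

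Transport genes of the distal nephron had the signs of the clock repressors. Of 23 genes for distal sodium and water transport, 18 had opposite differences (78.3%, against 61.2% of all genes), with a median interaction of -0.38. An unadjusted p below 0.05 was found in 13 (16.1% of all genes), 12 of them negative. Scnn1b, the beta subunit of the epithelial sodium channel, had a mean of 1979 ± 158 in ND_C against 2278 ± 179 in ND_B12, and 2361 ± 98.4 in D_C against 2010.1 ± 196 in D_B12 (SD, n = 4 each), and an interaction of -0.43 (SE 0.11, edgeR adjusted p = 0.0902). Aqp6, a water channel of acid-secreting intercalated cells, had 3273, 3298, 3008 and 3712 in ND_C against 4370.3, 3954, 2843 and 5212 in ND_B12, and 4068, 9255, 6407 and 6994 in D_C against 4287, 3747, 4132 and 3801 in D_B12. Its high values were those of D_C 2, 3 and 4, and D_C 1 lay within the other groups. The interaction of Aqp6 was -1.04 (SE 0.27, edgeR adjusted p = 0.0959), and -1.19 without D_C 1. Of 13 intercalated cell genes 8 had opposite differences (61.5%), near the share of all genes. A p below 0.05 was found in 5 (16.1% of all genes), all negative, among them Kit (-0.52) and the proton pump subunit Atp6v1g3 (-0.40). That count was 3 without ND_C 1 or D_B12 1, and 8 without ND_C 4. The summed level of the 2 thick ascending limb markers, which also belong to the transport list, was 224501 to 305749 in D_C and 165986 to 196869.5 in D_B12, and overlapped between ND_C and ND_B12. Sums for the distal convoluted tubule (54873 to 70231 in D_C, 60109 to 73956 in D_B12) and the collecting duct (15682 to 35289 and 13651 to 27188) overlapped. The part of a change in cell shares in these values was not tested.

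Cell cycle genes went the other way. All 24 had opposite differences (61.2% of all genes did), and 19 were positive, with a median of 0.53. A p below 0.05 was found in 9 (16.1% of all genes), 8 of them positive. Without D_C 1, 19 had opposite differences, and the median diabetic difference was 0.072 in place of 0.22. Without both columns S8 and S9 these were 20 and 0.06, and with the date in the library name as a covariate 17 and 0.021. Mki67, a protein of dividing cells, had 591, 529, 477 and 451 in ND_C against 507, 268, 310.1 and 386 in ND_B12, and 308, 497, 585 and 583 in D_C against 636, 889.6, 572 and 690.1 in D_B12. The groups overlapped in both arms, and D_C 1 was the lowest of its group. Its interaction was 0.98 (SE 0.30, edgeR adjusted p = 0.133). Mcm4, a subunit of the replicative helicase, went against the list at -0.64 (SE 0.17, edgeR adjusted p = 0.101). Heat shock chaperones were positive in 13 of 14 genes with a median of 0.41, and 13 had opposite differences (92.9%, against 61.2% of all genes). Beside 16.1% of all genes, 4 of the 14 had a p below 0.05. That last count rested on single libraries, with 9 without ND_B12 1, 0 without ND_B12 4 or D_B12 2, 1 without ND_C 1, ND_C 2, ND_B12 2, ND_B12 3, D_C 4 or D_B12 1, 2 without D_C 3, and 1 without both columns S8 and S9, while 13 or 14 genes were positive in each case. Dnajb1, a partner of HSP70, had 4733, 3041, 3165 and 1845 in ND_C against 3658, 2107, 1939 and 1638 in ND_B12, and 1681, 1860.1, 1603 and 1818 in D_C against 3404, 3676, 1593 and 1816 in D_B12, and an interaction of 1.05 (SE 0.43, edgeR adjusted p = 0.237). Its 4 highest libraries, ND_C 1, ND_B12 1 and D_B12 1 and 2, were also the 4 highest for Bmal1.

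Linker histone H1 genes had a median interaction of -0.72 over 7 genes, but 4 of 7 (57.1%) had opposite differences, near the share of all genes. H1f0, the replacement form of resting cells, did so, with 8917, 8863, 9387 and 7920.4 in ND_C against 8957, 10582, 9281 and 12122 in ND_B12, and 10327, 11506, 11732 and 14901 in D_C against 7954, 7554, 9517 and 8659 in D_B12. Every D_B12 library was below every D_C library, and the interaction was -0.74 (SE 0.16, edgeR adjusted p = 0.0592). H1f2 (-0.79) and H1f4 (-0.50) also had a p below 0.05, and H1f1, at 0.55, was the gene with the other sign, with a p that did not pass. H1f3, H1f5 and H1f10 were lower with B12 in both arms. Without D_C 3 the median of the list was -0.37.

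Vitamin B12 serves methionine synthase (Mtr), which makes methionine from homocysteine with a methyl group carried by folate. Mtr had an interaction of 0.34 (SE 0.13, edgeR adjusted p = 0.209), with a non-diabetic difference of -0.05. Of 20 one-carbon genes 15 had opposite differences (75.0%, against 61.2% of all genes). A p below 0.05 was found in 8 (5 without D_B12 1), against 16.1% of all genes. Of the 8, 7 were negative, among them Ahcy, which clears S-adenosylhomocysteine (-0.35, SE 0.085, edgeR adjusted p = 0.0800). Among 15 genes of B12 uptake and handling 8 had opposite differences (53.3%, against 61.2% of all genes). A p below 0.05 was found in 3 (16.1% of all genes), so neither count set the list apart. Lmbrd1, the lysosomal B12 exporter, was at -0.25.

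Several genes of fuel use, Ppara, Hk1, Slc2a1 and Txnip, were higher with B12 in non-diabetic and lower in diabetic kidneys, and so was Car9. Ppara, the nuclear receptor that turns on fatty acid oxidation, had 6643, 7037, 7068 and 7069 in ND_C against 7442, 9395, 9429 and 10354 in ND_B12, and 8404, 6998, 7650.3 and 6667 in D_C against 5203, 5978, 6256 and 5963 in D_B12. Neither arm overlapped, and the interaction was -0.74 (SE 0.13, edgeR adjusted p = 0.0554, between 0.00013 and 0.120 over the alternatives). Of 21 fatty acid oxidation and PPARalpha target genes, 19 were negative (12 without ND_B12 4), against 12789 of 25408 over all genes. Opposite differences were found in 14 (66.7%, against 61.2% of all genes) and a p below 0.05 in 3 (16.1% of all genes), both near the background. Cpt1a, which admits fatty acids to mitochondria, had means of 41041 ± 2268 in ND_C against 48817 ± 5211 in ND_B12, and 44987 ± 3579.7 in D_C against 38495 ± 3221 in D_B12 (SD, n = 4 each). This list turned on ND_B12 4. With all libraries 16 of its 21 genes were higher with B12 in non-diabetic kidneys and 14 had opposite differences, and without that library 5 were higher and 7 had opposite differences. It also moved with diabetic libraries, with 8 opposite and a median interaction of 0.0087 (in place of -0.15) without D_C 2, 9 opposite without D_B12 4, and 5 without both columns S8 and S9.

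Hk1, a hexokinase that begins glycolysis, had 6883, 6461, 6079 and 7693 in ND_C against 7989, 8325, 7384 and 7803 in ND_B12, and 8044, 9921, 9507 and 11056 in D_C against 7083, 7103, 6999 and 6484 in D_B12, and an interaction of -0.69 (SE 0.12, edgeR adjusted p = 0.0554). Its D_B12 libraries were all below D_C, and its non-diabetic groups overlapped. Slc2a1, a glucose transporter, had -0.60 (SE 0.15, edgeR adjusted p = 0.0790), and Txnip, a glucose-induced brake on glucose uptake, -1.15 (SE 0.28, edgeR adjusted p = 0.0790). For Txnip ND_B12 4 alone had 60997 counts where ND_B12 1 to 3 had 30753 to 34349, and its non-diabetic difference was 0.46 with and 0.18 without that library. Of 13 carbohydrate response genes, Txnip among them, 8 had opposite differences (61.5%, against 61.2% of all genes). A p below 0.05 was found in 2 of the 13 (16.1% of all genes), so neither count set the list apart. Car9, a carbonic anhydrase induced by low oxygen, had 394, 422, 539.9 and 439 in ND_C against 722, 804, 824 and 584 in ND_B12, and 808, 344, 447 and 427 in D_C against 258, 276, 227 and 234 in D_B12. Neither arm overlapped, D_C 1 stood at the level of the ND_B12 libraries, and the interaction was -1.73 (SE 0.29, edgeR adjusted p = 0.0521), and -1.38 without D_C 1.

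Among the 12 genes with the smallest adjusted p was Prdm16, a transcription factor known for brown fat and endothelium. Its counts were 1664, 1630.0, 1594 and 1814 in ND_C against 1956, 2261, 1888 and 2044 in ND_B12, and 2573, 1949.7, 2178 and 2530.4 in D_C against 1743, 1599, 1680.0 and 1583 in D_B12. Neither arm overlapped, and the interaction was -0.76 (SE 0.12, edgeR adjusted p = 0.0521, between 2.2e-05 and 0.120 over the alternatives). Tgfbr3, a co-receptor for TGF-beta, did the same with 4676, 4065, 3907 and 4164 in ND_C against 5114, 5167, 4713 and 5228 in ND_B12, and 6237, 5281, 6044 and 7008 in D_C against 5026, 4090.1, 4161 and 3912 in D_B12, and an interaction of -0.78 (SE 0.13, edgeR adjusted p = 0.0521). The vascular receptor Ephb4 (-0.49), the laminin chains Lamc1 (-0.51) and Lamb1 (-0.47) and the phosphatase Ppm1d (-0.60) were also higher with B12 in non-diabetic and lower in diabetic kidneys. The 4 endothelial markers all had opposite differences (61.2% of all genes did) and a p below 0.05 (16.1% of all genes). Their summed level was 15285 to 17226 in ND_C against 17421 to 20854 in ND_B12, and 19128 to 22809 in D_C against 17055 to 20298 in D_B12. Their part in the values of the vascular genes was not tested. Serpina1a (-0.69, SE 0.11, edgeR adjusted p = 0.0521) belongs to a cluster of near-identical copies, and its value is uncertain because reads could be split among them.

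Among genes with positive interactions were the neighbours Ttn and Ccdc141. Ttn encodes the giant muscle protein titin, and it lies on chromosome 2 from 76534136 to 76812891 on the minus strand. Ccdc141 follows on the same strand, from 76840233 to 77001054. Ttn had 1020.2, 905, 756 and 1016 in ND_C against 755, 594, 869.6 and 639.8 in ND_B12, and 1037, 783, 925 and 726 in D_C against 1292, 1287, 1672 and 1479 in D_B12, and an interaction of 1.10 (SE 0.20, edgeR adjusted p = 0.0559). All D_B12 libraries were above all other libraries. The 8 skeletal muscle markers summed to 574 to 1210.3 counts in D_C and 886 to 1250.4 in D_B12, which overlap. Ccdc141 had 0.76 (SE 0.14, edgeR adjusted p = 0.0559), Dtx4, a Deltex ubiquitin ligase, 1.08 (SE 0.22, edgeR adjusted p = 0.0559), and Chka, which begins phosphatidylcholine synthesis, 0.58 (SE 0.13, edgeR adjusted p = 0.0595).

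**Figure D3:**
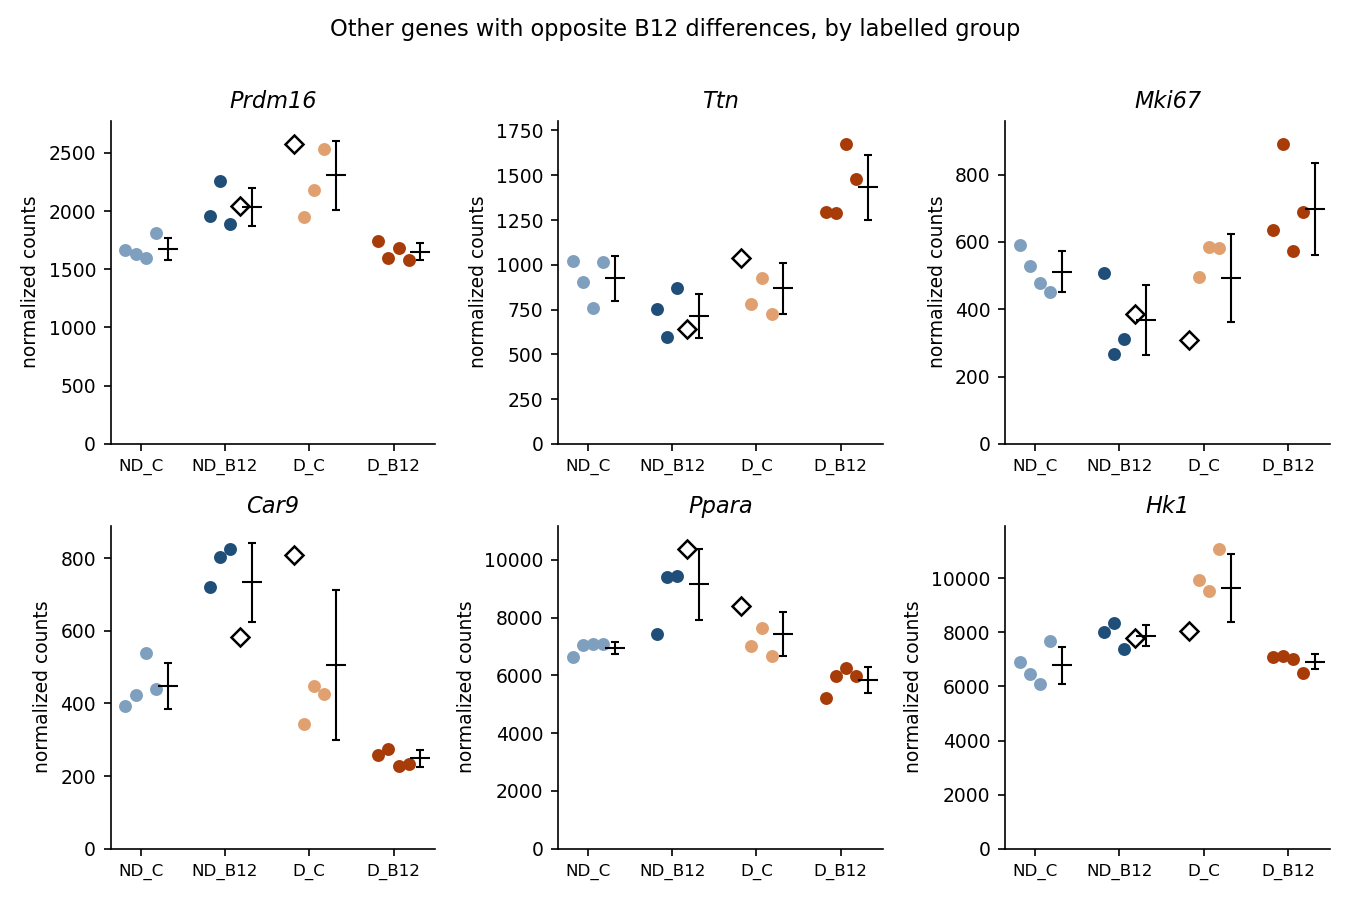
Normalized counts (y axis, from 0) of 6 further genes by labelled group (x axis), drawn as for the clock genes with the mean and SD at the right of each group. For Ttn all D_B12 points lie above all other points; for Car9, D_C 1 (open diamond, 808) lies apart from the other D_C libraries (344 to 447).

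Interferon-stimulated and MHC class II genes mostly had B12 differences of the same sign in both arms. Only 4 of 37 interferon-stimulated genes (10.8%) had opposite differences, with medians of -0.22 in non-diabetic and -0.31 in diabetic kidneys, and 1 of 10 MHC class II genes (10.0%), with -0.33 and -0.36. For the interferon list the count was 7 without D_C 1, ND_C 4 or ND_B12 3, 8 without ND_C 1, and 12 with the date in the library name as a covariate. Zc3hav1, an antiviral protein, and Ifih1, a sensor of viral RNA, were the interferon genes with the smallest interaction p (-0.41 and -0.32, edgeR adjusted p = 0.0930 and 0.107). Genes of oxidative phosphorylation (median 0.032) and cytosolic ribosomal proteins (-0.026, and 0.027 with upper-quartile scaling) were near 0, with opposite shares of 62.0% and 54.2%. Without ND_B12 4 and D_C 1 the opposite oxidative phosphorylation genes went from 49 to 28 of 79. Immediate early genes were negative in 15 of 21, among them Ier2 (-0.92, SE 0.20, edgeR adjusted p = 0.0618). In the unfolded protein response Manf (0.74) and Creld2 (0.73), which fold proteins of the endoplasmic reticulum, were among 4 positive genes with a p below 0.05, of which there were 7 without ND_B12 1. Of the 21 genes in that list 14 had opposite differences (66.7%, against 61.2% of all genes). A negative interaction with a p below 0.05 was found in 1, and 16.1% of all genes had a p below 0.05.

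**Figure D4:**
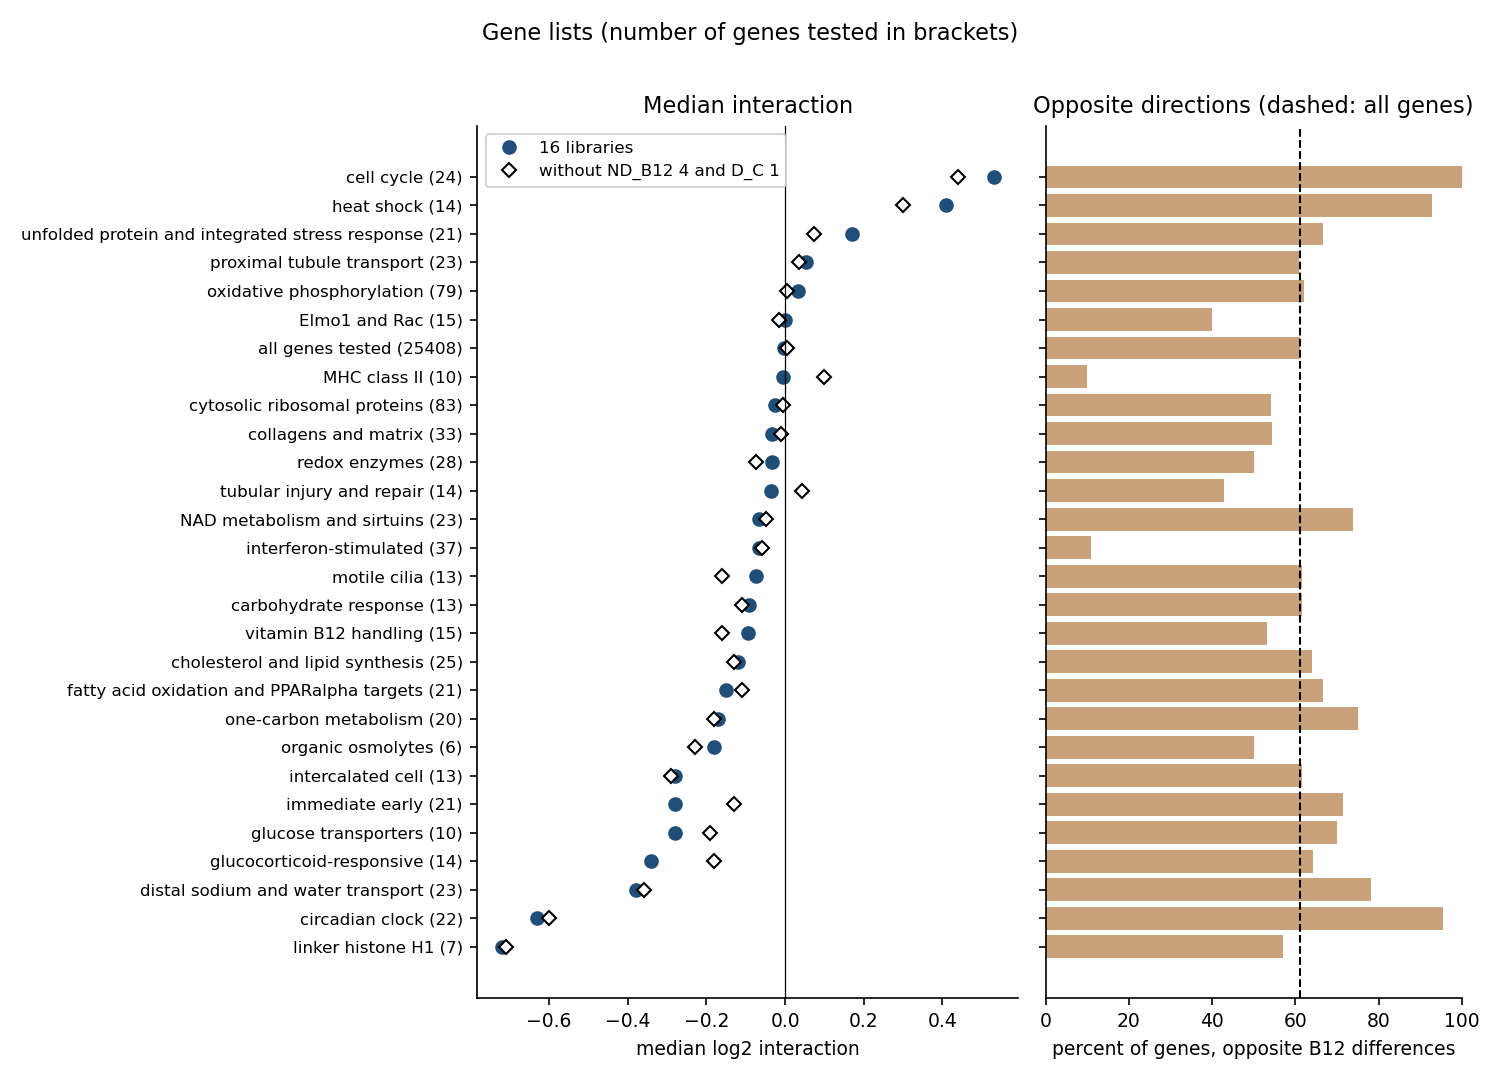
Left, the median log2 interaction (x axis) of each gene list with at least 5 genes tested, with 16 libraries (filled) and without ND_B12 4 and D_C 1 (open). Right, the percent of each list with opposite B12 differences with 16 libraries, beside 61.2% of all genes (dashed line). The clock (95.5%), the cell cycle (100%, and 83.3% without ND_B12 4 and D_C 1) and heat shock (92.9%) lie above it. Interferon-stimulated (10.8%) and MHC class II genes (10.0%) lie below.

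Columns S8 and S9 were left out in turn to see how far they drove the opposite genes. Without ND_B12 4 all 418 of the 423 genes that could still be tested kept their opposite directions, without D_C 1 all 413 did, and without both all 409 did. Each of the other 14 libraries, left out in turn, let at least 99.5% keep theirs. These genes were chosen with every library in and a difference of at least 0.5 in each arm, so kept directions among them are close to fixed by the choice and are no sign of stability. Over all 15543 genes with opposite differences 88.1% kept them without ND_B12 4, 90.4% without D_C 1 and 80.8% without both. The thresholds were more sensitive. Without ND_B12 4 only 267 (63.9%) stayed past them, the fewest for any library, while 371 (89.8%) stayed without D_C 1, the most, and the other 14 gave 311 to 370. Without both 251 (61.4%) stayed, and 466 genes passed when the set was drawn anew.

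In the median of the 423 genes the libraries pulled in opposite senses. The non-diabetic difference of the 423 genes without ND_B12 4 had a median of 0.87 times its full size, and 11 genes (2.63%) fell below 50% of it. Without D_C 1 the diabetic difference had a median of 1.14 times its full size and no gene fell below 50%. In the median ND_B12 4 thus enlarged the non-diabetic and D_C 1 lessened the diabetic difference. The genes were chosen with both libraries in the fit, so these ratios describe the set and test neither library. Single genes went the other way, such as Car9, whose diabetic difference was -1.02 with and -0.68 without D_C 1. ND_B12 4 was the library farthest from its group mean in 11.8% of the 423 genes and 7.77% of all genes, D_C 1 in 8.51% and 14.7%, and ND_B12 1 (column S5) in 12.1% and 7.97%. Among the 116 of them with named symbols ND_B12 1 was farthest in 19, D_B12 1 and D_B12 4 in 11 each, and ND_B12 4 and D_C 1 in 10 each.

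Across the table the interaction without both libraries had a Pearson r of 0.91 with that from all 16 over 24831 genes. The fits share every other library, so a high r is in large part built in. Without both, 87 genes passed adjustment, against 0 with all 16, 0 without ND_B12 4 and 266 without D_C 1. Of the 91 named genes with opposite differences 89 kept them without both, the exceptions being Ifih1 and Mtr, whose non-diabetic differences were near 0. Many named genes were chosen by p-value or opposite differences with every library in. Kept directions among them are therefore close to fixed by the choice. All 22 clock genes were opposite without both (60.2% of all genes were), with a median of -0.60. Clock repressors that leaned on ND_B12 4 included Ciart, with a non-diabetic difference of 0.54 and then 0.04 without both, and Bhlhe41, with 0.53 and 0.19. For Car9, the diabetic difference was -1.02 with all libraries and -0.69 without both.

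**Figure D5:**
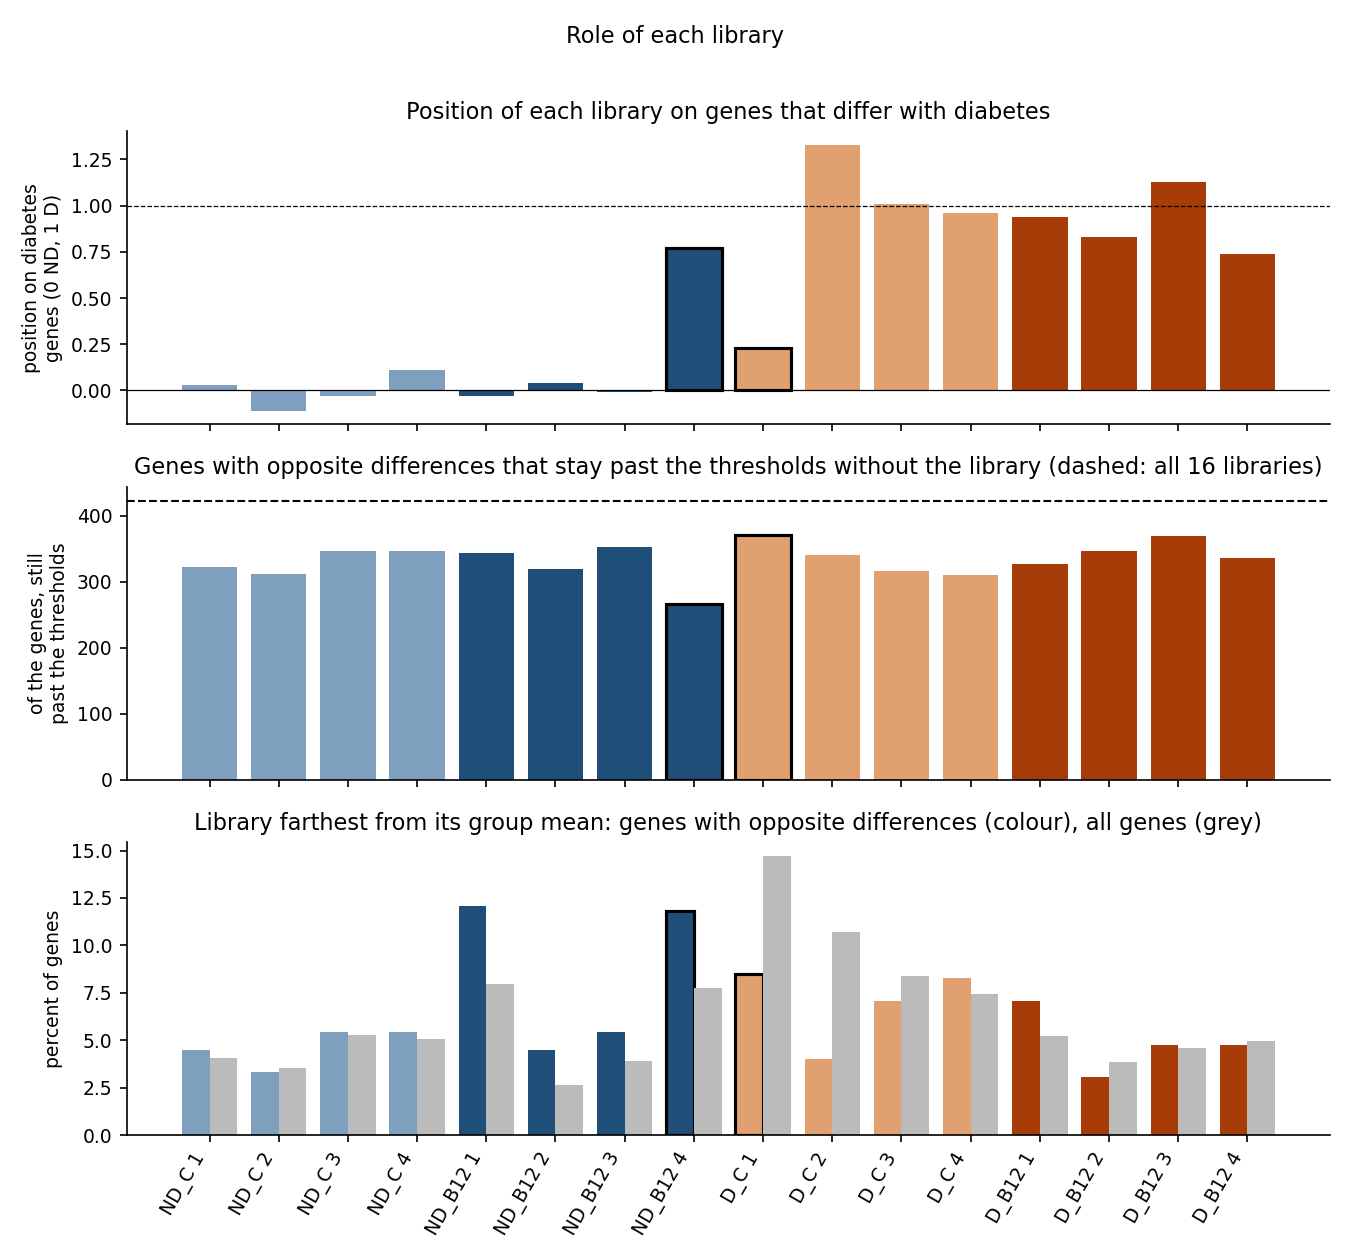
Top, median position of each library (y axis, where 0 is the non-diabetic and 1 the diabetic mean) on diabetes genes chosen without ND_B12 4 and D_C 1. Middle, how many of the 423 genes stayed past the thresholds without the library, from 267 (ND_B12 4) to 371 (D_C 1). Bottom, percent of the 423 genes (colour) and of all genes (grey) in which the library lay farthest from its group mean; ND_B12 4 and D_C 1 are outlined.

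Most of the genes past the thresholds were low and unnamed. Of the 333 that were higher with B12 in diabetic kidneys, 275 (82.6%) had predicted or clone-based symbols and 51 were protein coding, and 120 (36.0%) lay inside a coding gene on the same strand. Among the 90 of the reverse direction these were 32 (35.6%), 58 and 6 (6.67%), and among all genes tested 37.0% were predicted and 9.30% lay inside. The median counts were 27.4 and 28.3, against 252 for all genes. As a class, the 1682 TEC loci, which GENCODE lists as lacking experimental evidence, were positive in 79.5%, with a median interaction of 0.52, and in 83.6% with a median of 0.62 without both libraries. Their share of counts was 0.159% to 0.202% in ND_C against 0.131% to 0.172% in ND_B12, and 0.146% to 0.226% in D_C against 0.185% to 0.225% in D_B12. Mitochondrial transcripts took 10.8% to 11.9% in ND_C against 10.6% to 11.7% in ND_B12, and 8.35% to 11.8% in D_C against 12.4% to 13.1% in D_B12. The 8.35% was that of D_C 3, and D_C 1, 2 and 4 had 11.4% to 11.8%. What part RNA quality or unspliced RNA had in these values was not tested.

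The dates in the library names moved with the groups. No date held both D_C and D_B12 libraries, so date and B12 cannot be told apart within the diabetic arm, and ND_C and ND_B12 shared 1 date. With the date as a covariate 52.2% of genes had opposite differences, 753 passed adjustment, and 19 of 22 clock genes were opposite with a median of -0.76. What the date records is not given in the labels.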

How the data were processed

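Kidney RNA of 16 mice was sequenced as total RNA libraries. Per the labels and the study's methods the authors used bcl2fastq 2.20.0, STAR on GRCm39 and StringTie, and deposited 1 estimated count per gene and library. All values were whole numbers, so none was changed by rounding, and the transcript table was not used here. Whether counting used strand is not given in the sources used here, so a gene and an antisense partner may share reads. The interaction was tested in R 4.3.3 with edgeR 4.0.16 (TMM, glmQLFit and glmQLFTest, two-sided, labelled groups as the model terms, 12 degrees of freedom left, Benjamini-Hochberg over 25408 genes at 0.05). For normalized counts, each library was scaled by its median-of-ratios size factor. The script was tested on simulated data. Genes were placed by GENCODE on GRCm39, which matched 25261 identifiers, and a symbol that occurred more than once (44 symbols) was read from its most abundant entry.

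Gene lists, markers and genes were chosen with earlier results of these data known. Genes to name were drawn from every gene passing adjustment, the 12 smallest p-values in each direction among genes with a mean of at least 50 counts, a B12 difference of at least 0.2 in both arms and no predicted symbol, the 2 smallest p-values of each list, and all clock and linker histone genes; genes at the edge of the fold threshold were named after their values were seen, and some genes under the rule are not reported here. Same-numbered libraries of different groups did not deviate together (24 pairs, correlations -0.18 to 0.17). Alternatives were DESeq2 1.42.0, limma 3.58.1 voom with library weights, edgeR's robust fit, upper-quartile scaling, a filter at 1 count, filterByExpr, the date in the library name, the replicate number as a block, and leaving out each library or columns S8 and S9 together.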

Additional observations from a re-analysis of the deposited data

Results flagged for a closer look

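In 88 groups of 4 libraries, covering the 21 genes whose values were checked by library and the diabetes position, 6 had 1 library far from the other 3, and chance gives about 1 in 20 groups. Bmal1 had 1062 normalized counts in ND_B12 1, where the other ND_B12 libraries had 227 to 255. Cry2 had 1251 in the same library, where the others had 2316 to 2475. Ppara had 6643 in ND_C 1 against 7037 to 7069. Hk1 had 6484 in D_B12 4 against 6999 to 7103. Txnip had 60997 in ND_B12 4 against 30753 to 34349. The diabetes position of ND_B12 4 was 0.77, against -0.03 to 0.04 in the other ND_B12 libraries. The genes behind that position were chosen without ND_B12 4 and D_C 1. This gap is therefore in part built in, and the 1 in 20 does not hold for it. No cause of these values was tested. The library ND_B12 1, which stood apart for Bmal1 and Cry2, was also the one whose removal raised the interaction of Bmal1 most, to 3.06.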

How the results depend on the processing

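The count of genes passing adjustment depended on the setting. It was 0 with 16 libraries in edgeR, 943 with DESeq2, 378 with limma-voom and library weights, 20 with the robust fit, 753 with the date as a covariate and 87 without columns S8 and S9, and it stayed at 0 with upper-quartile scaling and with both other filters. Leaving out 1 library gave 0 to 266, with 266 without D_C 1, 213 without ND_B12 1, 145 without D_C 2, 118 without ND_C 4 and 0 without any other. The replicate number as a block gave 147, although the check of pairing found 3 of 24 pairs over 0.1 and 5 of 16 libraries closest to one of their own number, so the numbers do not pair the samples. Genes past the thresholds of the stricter set numbered 423, 635 with limma-voom, 1099 with the filter at 1 count, and 349 to 637 with 1 library left out. The share of genes with opposite differences ran from 51.5% with the filter at 1 count, and 52.2% with the date, to 63.0% without D_C 1. Upper-quartile scaling shifted the median interaction by 0.054. No named gene changed the sign of its interaction under any of 25 alternatives. Many were named for small interaction p-values with all libraries in, so kept signs are no sign of stability. Of 98 named genes, 59 passed adjustment in DESeq2, 43 with the date, 40 with limma-voom, 34 without ND_B12 1, 31 without D_C 1 and 15 without S8 and S9. The medians of the glucose transporter list (-0.28, and -0.037 without ND_B12 4) and of linker histones (-0.72, and -0.37 without D_C 3) moved by more than the typical standard error of their genes. Genes with few counts limit the stricter set, since 136 of its 423 genes had a mean of at least 50 counts. Causes of these changes were not tested.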
